A study of Tetranychus urticae with 5 samples.

Results

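CYP307A1, CYP302A1, CYP315A1 and CYP314A1 are the cytochrome P450 genes of moulting hormone synthesis that carry a symbol on this spider mite array. They were taken by symbol alone, from the suffix of the gene name in the array files, without use of any measured value. They are 4 of 19601 gene names on the array, and 4 of the 99 P450 genes (names that contain CYP) that passed the filter. Their full names are Tetur10g04670_CYP307A1, Tetur05g02960_CYP302A1, Tetur06g07050_CYP315A1 and Tetur03g03650_CYP314A1. Each had 3 probes, and all 12 probes passed the filter on dim probes. The files give no genome position for them, and none of the 4 names matched the RefSeq gene table.

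RNA came from deutonymph females of Tetranychus urticae, the last nymphal stage before the adult. The resistant strain SR-TK was kept under 1000 mg/L spirodiclofen (2 arrays) and the resistant strain SR-VP under 5000 mg/L (3 arrays). The strain LS-VL was reared without the compound and served as the other channel of all 5 arrays. Spirodiclofen kills mites by blocking acetyl-CoA carboxylase, which starts fatty acid synthesis. All strains lived on bean at 26 °C, 60% relative humidity and 16 h of light to 8 h of dark. Eggs were laid over about 6 h by groups of 250 females, and each extract pooled about 200 whole mites. Each strain is 1 population, so a strain's history and its resistance cannot be told apart. The labels do not say that the collected mites were exposed to spirodiclofen.

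Moulting in mites and insects is driven by pulses of ecdysteroids, steroid hormones made from dietary sterols through a chain of oxidations. The roles of the enzymes are known from Drosophila. There the product of CYP307A1 (spook) acts early, in a set of steps whose intermediates are not settled, and the mitochondrial enzymes CYP302A1 (disembodied), CYP315A1 (shadow) and CYP314A1 (shade) add hydroxyl groups late. CYP314A1 makes the last change, which turns the prohormone into the active hormone. The genome of T. urticae lacks the insect hydroxylase CYP306A1, and its moulting hormone is thought to be ponasterone A.

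Every array carried the resistant strain in Cy5 and LS-VL in Cy3, with no dye swap, so a dye bias of a probe stays in its ratio to LS-VL and cancels only between SR-TK and SR-VP. The share of spots well above background in Cy5 was 74% and 72.9% on the SR-TK arrays and 73.8%, 75.9% and 54.3% on the SR-VP arrays. SR-VP replicate 3 stood apart from the rest, and in its LS-VL channel the share was 59.2%, against 67.2% to 71.5% on the other arrays. It was not a dim array. Before background subtraction its median signal was 406 in Cy5, against 226.5 to 273 elsewhere, and 179 in Cy3, against 109.5 to 145. The lower quartile of its Cy5 signal was 168.5, against 78.5 to 82. None of the 9 names looked for as markers of stage and sex matched a symbol, so the labelled stage was not checked by markers. The array holds 2 genes with the truncated symbol chitin, whose function the symbol does not give, so they were not used as markers. Their fitted log2 ratios to LS-VL were −0.37 and −0.26 in SR-TK (limma adjusted p = 0.0632 and 0.121). In SR-VP they were −0.19 and −0.11 (limma adjusted p = 0.178 and 0.357). Of the 60 spot values of the 12 hormone gene probes in each channel, all 60 were well above background in Cy3 and 59 in Cy5. The exception was probe 2 of CYP314A1 on SR-VP replicate 3.

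The hormone genes spanned a wide range of signal, and CYP307A1 was the brightest. On the normalised log2 scale, averaged over 3 probes, CYP307A1 had 13.35 and 13.41 in SR-TK, 13.53, 13.09 and 13.64 in SR-VP, and 13.54 ± 0.25 in LS-VL (SD, n = 5 arrays). In LS-VL it was the brightest of the 99 tested P450 genes on each of the 5 arrays. There it lay at the 96.94th to 98.13th percentile of the 15861 genes left by the filter on dim probes. In the resistant strains 2 or more other P450s were brighter, since its rank was 3 to 4 in SR-TK and 3 to 6 in SR-VP. Brightness depends on the probe as well as on the RNA, so these ranks order signals and not transcript numbers.

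CYP315A1 and CYP302A1 had middle signals and CYP314A1 the lowest. CYP315A1 gave 9.41 and 10.43 in SR-TK, 10.41, 9.90 and 10.40 in SR-VP and 9.76 ± 0.49 in LS-VL (log2 signal, SD, n = 5 arrays). CYP302A1 gave 9.44 and 8.89 in SR-TK, 9.03, 9.24 and 9.31 in SR-VP and 9.37 ± 0.28 in LS-VL. Probe 3 of CYP302A1 was dim in both channels on SR-TK replicate 2 and SR-VP replicate 1, where the gene was also lowest in both channels. Its background-subtracted Cy5 intensity was 401.5 and 509 there, against 1278 to 1357.5 on the other arrays. Over all 3 probes, the LS-VL means of CYP315A1 and CYP302A1 differed by less than the spread of CYP315A1. That spread includes probe 1 of CYP315A1, which was dim on SR-TK replicate 1. Without probe 1 the LS-VL signal of CYP315A1 was 9.59 to 10.35 (SD 0.365), above the CYP302A1 mean on each array. CYP314A1 gave 7.99 and 7.72 in SR-TK, 7.87, 7.81 and 7.67 in SR-VP and 7.96 ± 0.14 in LS-VL. Among the 15861 genes left by the filter on dim probes, CYP314A1 lay at the 37.58th to 42.22nd percentile in SR-TK. It lay at the 38.23rd to 40.23rd in SR-VP and the 39.82nd to 45.76th in LS-VL. Its rank among the P450s by brightness was 66 to 67 in SR-TK, 62 to 66 in SR-VP and 58 to 63 in LS-VL.

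**Figure D1:**
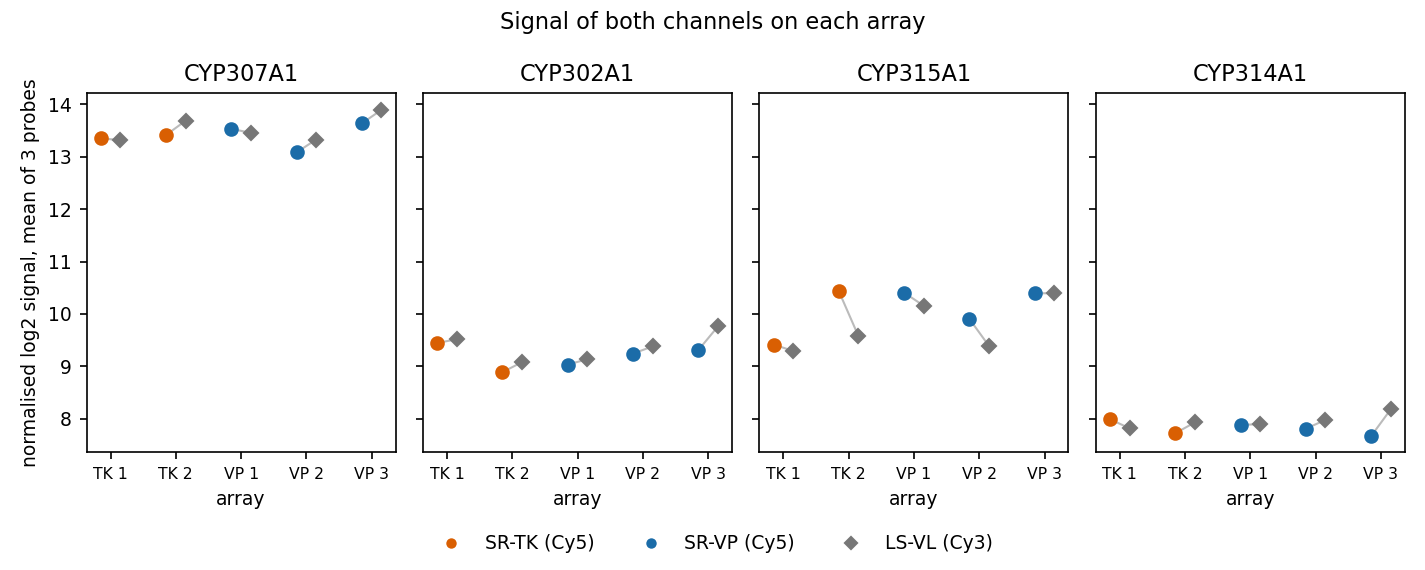
Normalised log2 signal (vertical axis, mean of 3 probes) of each gene on each array, SR-TK in orange, SR-VP in blue and LS-VL of the same array in grey, joined by a line. CYP307A1 lies near 13.54 and CYP314A1 near 7.96 in LS-VL, and the largest gap between the channels is that of CYP315A1 on SR-TK replicate 2.

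The first question was whether the hormone genes of each resistant strain differ from LS-VL. None of the 4 genes passed the test in either strain. A gene counted as called at an adjusted p under 0.05 (limma, Benjamini-Hochberg over 15861 genes) with an absolute log2 ratio of at least 1. In SR-TK 0 of 4 were called, against 2.28% of all genes, and in SR-VP 0 of 4, against 1.95%. By the adjusted p alone the counts were again 0 of 4, against 8.34% of all genes in SR-TK and 11.3% in SR-VP. At an unadjusted limma p under 0.05, 1 of 4 passed in SR-TK (CYP315A1), against 25.2% of all genes, and 1 of 4 in SR-VP (CYP302A1), against 26.9%. In whole mites, a difference in the number of cells of the hormone-making tissue could not be told apart from a difference in RNA per cell.

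For CYP307A1, the early enzyme, the log2 ratio to LS-VL was 0.03 and −0.27 on the SR-TK arrays. The SR-VP arrays gave 0.08, −0.24 and −0.26. Both strains had arrays on either side of 0, and their ranges overlapped. The fitted log2 ratio was −0.12 ± 0.12 in SR-TK (SE, 2 arrays, adjusted p = 0.596 in limma) and −0.14 ± 0.10 in SR-VP (SE, 3 arrays, adjusted p = 0.425). As folds these are 0.919 (95% interval 0.747 to 1.13) in SR-TK and 0.906 (0.765 to 1.07) in SR-VP. The direction depended on the normalization: with each array centred on its median in place of loess, the log2 ratio was 0.55 in SR-TK (adjusted p = 0.0463) and 0.23 in SR-VP, where the median of all genes also moved to 0.22 in SR-TK and 0.12 in SR-VP. CYP307A1 is among the 5% brightest genes, whose median under that centring was 0.68 in SR-TK and 0.38 in SR-VP, against 0.01 and 0.00 after loess. Relative to the median of all genes the centred value of CYP307A1 was 0.33 in SR-TK and 0.11 in SR-VP.

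For CYP302A1, which hydroxylates the side chain of the steroid, the log2 ratio was −0.07 and −0.19 in SR-TK. The SR-VP arrays gave −0.10, −0.14 and −0.45. Both SR-TK arrays and all 3 SR-VP arrays were below 0. For comparison, both SR-TK arrays lay on 1 side of 0 for 68.1% of all genes, and all 3 SR-VP arrays for 50.1%. The fitted log2 ratio was −0.13 ± 0.11 in SR-TK (SE, limma adjusted p = 0.517) and −0.23 ± 0.09 in SR-VP (adjusted p = 0.166). The folds were 0.914 (95% interval 0.759 to 1.10) in SR-TK and 0.853 (0.733 to 0.992) in SR-VP. Under median centring the SR-TK value turned to 0.26, which is 0.05 above the median of all genes. The SR-VP value was then −0.011 (limma adjusted p = 0.956), or −0.14 relative to that median. Without SR-VP replicate 3, the lowest of the arrays, the SR-VP value was −0.12.

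CYP315A1, which hydroxylates the A ring, had the highest fitted ratio of the 4 genes in both strains. Its log2 ratio was 0.12 and 0.86 in SR-TK, and 0.25, 0.52 and 0.00350 in SR-VP. No array was below 0, and SR-TK replicate 2 was the highest. For comparison, all arrays of a strain lay on 1 side of 0 for 68.1% of all genes in SR-TK and 50.1% in SR-VP. The SR-TK arrays lay further apart than the SR-VP arrays, and the strains overlapped. The fitted log2 ratio was 0.49 ± 0.20 in SR-TK (SE, limma adjusted p = 0.19) and 0.26 ± 0.16 in SR-VP (adjusted p = 0.368). The folds were 1.40 (95% interval 1.01 to 1.95) in SR-TK and 1.19 (0.912 to 1.57) in SR-VP. Without SR-TK replicate 2 the SR-TK value was 0.12, and without SR-TK replicate 1 it was 0.86. Under median centring the SR-TK value passed the adjusted p (log2 ratio 0.87, adjusted p = 0.0167), and it lay 0.65 above the median of all genes there. The SR-VP value was then 0.52 (adjusted p = 0.0644), which lay 0.39 above the median.

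CYP314A1, the enzyme of the last step, had log2 ratios of 0.17 and −0.21 in SR-TK, which lie on either side of 0. In SR-VP it had −0.02, −0.17 and −0.51, all below 0, where all 3 arrays lay on 1 side of 0 for 50.1% of all genes. The fitted log2 ratio was −0.02 ± 0.15 in SR-TK (SE, limma adjusted p = 0.958) and −0.23 ± 0.12 in SR-VP (adjusted p = 0.279). The folds were 0.988 (95% interval 0.771 to 1.27) in SR-TK and 0.850 (0.694 to 1.04) in SR-VP. The SR-TK direction turned to 0.13 under median centring and to 0.17 without SR-TK replicate 2. The SR-VP value was −0.10 without SR-VP replicate 3, the array with fewer spots above background, and −0.11 under median centring. Other alternatives moved it further from 0. It was −0.34 without SR-VP replicate 1, −0.31 with a normexp offset of 10 in place of 50, and −0.40 with processed signals. Probe 2 was dim, with a background-subtracted Cy3 intensity of 50.5 to 119.5 on the SR-VP arrays, which is near the offset of 50.

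**Figure D2:**
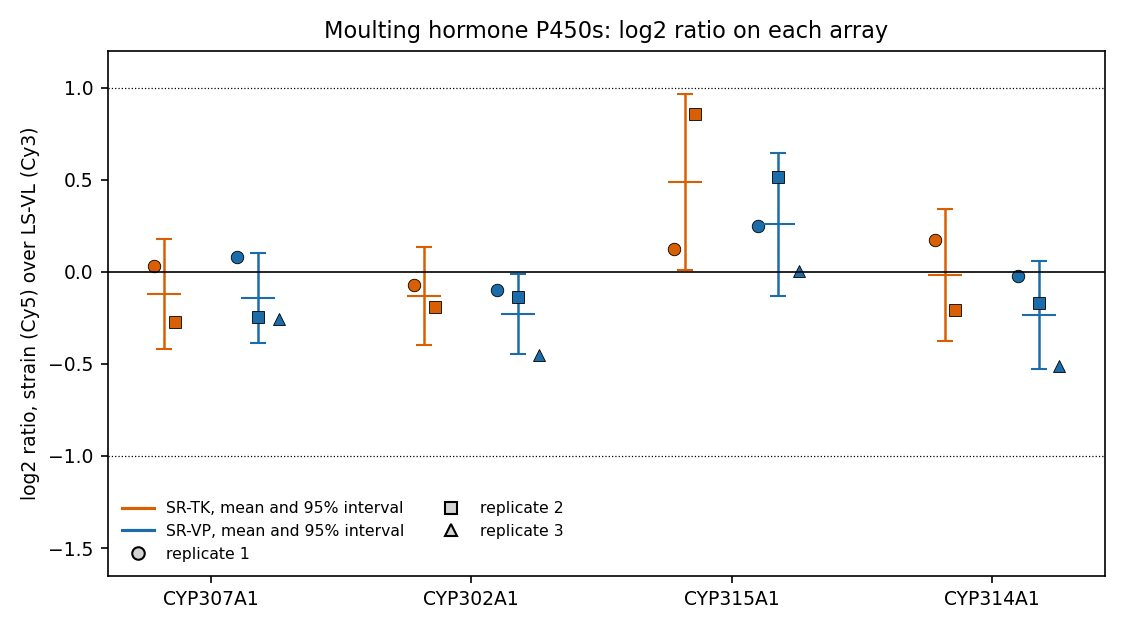
Log2 ratio of the resistant strain (Cy5) over LS-VL (Cy3) of each gene on each array, SR-TK in orange left of SR-VP in blue, with symbols for the replicate, a horizontal bar for the strain mean and a vertical bar for the 95% interval of the fit. Dotted lines mark a log2 ratio of 1 in either direction, and every interval lies between them.

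The intervals show what the spread between arrays allows under 1 normalization. They do not cover a dye bias or the choice of normalization, and may understate the spread of LS-VL. CYP307A1 in SR-TK had a log2 ratio of 0.55 under median centring, outside its interval of −0.42 to 0.18. In the fit reported here, for all 4 genes the 95% interval lay within a log2 ratio of 1 in either direction, in SR-TK, in SR-VP and in the difference between the strains. The same held for 92.7% of all genes in SR-TK, 94.9% in SR-VP and 93.4% in the difference. For CYP315A1 in SR-TK this held only narrowly: its upper limit was 0.97, against 1.03 with a normexp offset of 10, 1.33 without SR-TK replicate 1 and 1.36 under median centring. A 2-fold level of CYP315A1 in SR-TK was therefore inside the interval under some settings. Smaller changes inside the intervals were not detectable with these arrays. Medians of the log2 ratio over the 4 genes were −0.07 in SR-TK and −0.19 in SR-VP, against 0.02 and 0.00 over all genes.

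The second question was whether the resistant strains differ from each other. The difference of SR-TK minus SR-VP was 0.02 ± 0.16 for CYP307A1 (log2, SE, 95% interval −0.37 to 0.41), with a limma adjusted p of 0.988. It was 0.10 ± 0.14 for CYP302A1 (−0.25 to 0.44, adjusted p = 0.903) and 0.23 ± 0.25 for CYP315A1 (−0.38 to 0.85, adjusted p = 0.869). CYP314A1 had 0.22 ± 0.19 (−0.25 to 0.68, adjusted p = 0.82). In this contrast 0 of 4 genes were called, against 0.214% of all genes, 0 of 4 passed the adjusted p alone, against 0.252%, and 0 of 4 an unadjusted p under 0.05, against 9.12%. The log2 ratios of the strains overlapped for each of the 4 genes, while they did not overlap for 27.2% of all genes. SR-TK and SR-VP are set against the same LS-VL strain, so their ratios are not independent of each other.

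The probes of a gene differed in how closely they followed each other. For CYP307A1 the 3 probes had mean log2 ratios of −0.10, −0.15 and −0.11 in SR-TK and −0.11, −0.19 and −0.12 in SR-VP. On any 1 array these probes lay within 0.14 of each other. CYP315A1 was nearly as tight: its probes gave 0.52, 0.53 and 0.42 in SR-TK and 0.26, 0.26 and 0.25 in SR-VP, with a span of at most 0.19 on an array. On SR-TK replicate 2, the array with its highest ratio, the 3 probes read 0.87, 0.87 and 0.83. That array's high ratio was thus shared by all 3 probes.

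The probes of CYP302A1 and CYP314A1 lay further apart. CYP302A1 had probe means of −0.19, −0.18 and −0.02 in SR-TK and −0.22, −0.36 and −0.12 in SR-VP. Its probe 2 alone passed in SR-VP in a fit over all probes (limma adjusted p = 0.0368), with all 3 arrays below 0. On SR-VP replicate 3, the array with its lowest ratio, probes 1 to 3 of CYP302A1 read −0.69, −0.41 and −0.26. CYP314A1 had 0.13, −0.16 and −0.02 in SR-TK and 0.06, −0.38 and −0.38 in SR-VP, so probe 1 lay above 0 in both strains where the gene mean lay below. Its probes spanned 0.25 to 0.71 on an array, the widest of the 4 genes. Whether the probes target different transcripts was not tested.

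**Figure D3:**
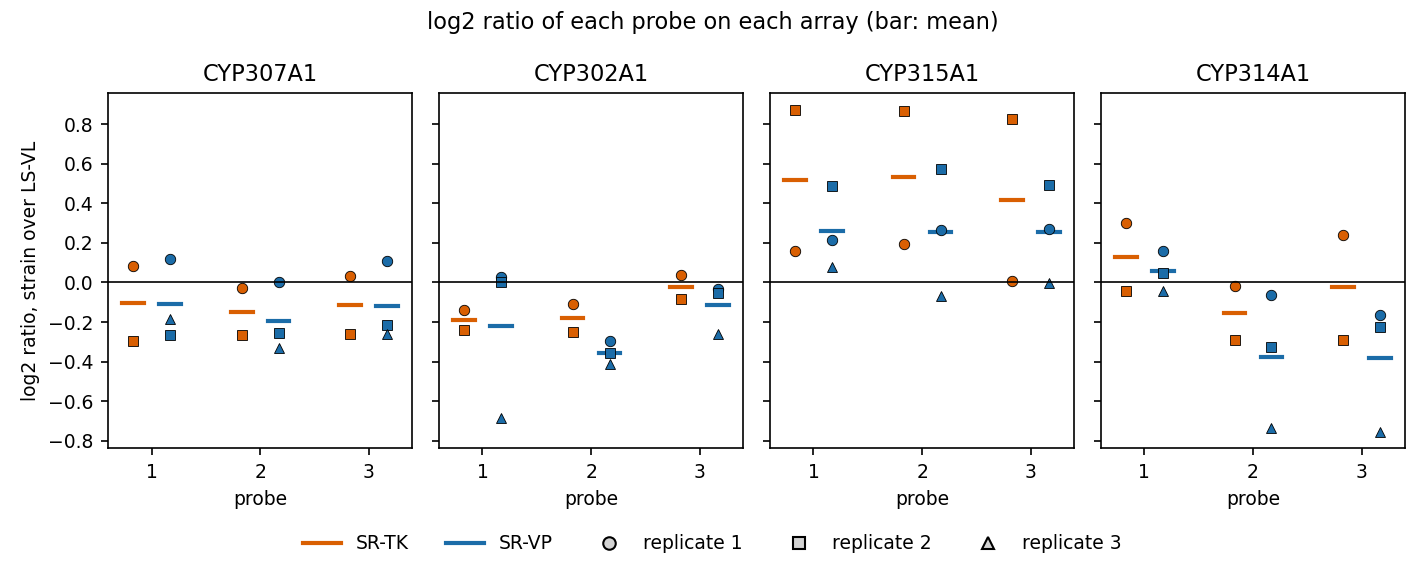
Log2 ratio of each of the 3 probes of each gene on each array, SR-TK in orange left of SR-VP in blue, with symbols for the replicate and a bar for the strain mean. The probes of CYP307A1 and CYP315A1 give alike means, whereas probe 1 of CYP314A1 has a mean of 0.06 in SR-VP and its other probes −0.38.

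Probe 1 of CYP315A1 was dim in both channels on SR-TK replicate 1. Its background-subtracted intensity in Cy5 was 128 there, against 1500 on SR-TK replicate 2 and 1537, 1047 and 2789.5 on the SR-VP arrays. In the LS-VL channel of the same arrays it was 47, 372, 500, 364 and 1280.5. The lowest and highest LS-VL values thus differed by more than 5-fold, as they did for 3.47% of all probes. Because both channels dropped together, the log2 ratio hardly moved: without this probe, an alternative added after the values were seen, CYP315A1 had 0.10 and 0.85 in SR-TK and 0.27, 0.53 and −0.03 in SR-VP. The level of CYP315A1 on SR-TK replicate 1 was 10.46 in SR-TK and 10.35 in LS-VL without it, against 9.41 and 9.29 with it.

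The signals of CYP315A1 could also be followed without probe 1. Then the LS-VL log2 signal was 10.35 and 9.70 on SR-TK replicates 1 and 2, and 10.26, 9.59 and 10.30 on SR-VP replicates 1 to 3. Both arrays numbered 2 were thus the lowest in LS-VL and the highest in ratio, over these 2 probes only. With all 3 probes this order did not hold: SR-TK replicate 1 had the lowest LS-VL signal, 9.29, and a log2 ratio of 0.12. Without probe 1 the signal of the resistant strain was 10.46 and 10.55 in SR-TK and 10.53, 10.12 and 10.27 in SR-VP. The labels do not tie LS-VL extracts to array numbers, and the part of LS-VL in the ratio was not tested.

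CYP315A1 was also the most variable of the 4 genes between replicates. Its residual SD of the log2 ratio was 0.366, above 92.13% of all genes, whose median was 0.144. CYP314A1 had 0.258, CYP307A1 0.199 and CYP302A1 0.165, each above the median too. In LS-VL alone, the SD over 5 arrays lay at the 93.91st percentile for CYP315A1, the 79.94th for CYP302A1, the 75.12th for CYP307A1 and the 40.15th for CYP314A1. Probes differed in this spread. For probes 1 to 3 the LS-VL SD was 1.29, 0.44 and 0.30 for CYP315A1, and 0.35, 0.051 and 0.65 for CYP302A1. Without probe 1 the SD of CYP315A1 fell from 0.49 to 0.365.

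The genes moved in part together from array to array. CYP302A1 and CYP314A1 put the arrays in the same order by log2 ratio, from SR-TK replicate 1 through SR-VP replicates 1 and 2 and SR-TK replicate 2 down to SR-VP replicate 3. That order was shared by 376 genes, or 2.37% of all genes. Over all 3 probes, the LS-VL signal of all 4 genes was highest on SR-VP replicate 3, as it was for 27.1% of all genes. Without probe 1, CYP315A1 was highest in LS-VL on SR-TK replicate 1 (10.35, against 10.30 on SR-VP replicate 3). The ratio was lowest on SR-VP replicate 3 for 3 of the 4 genes, as for 32.2% of all genes, and lowest on SR-TK replicate 2 for CYP307A1. SR-VP replicate 3 is the array with the fewest spots above background in both channels. Without it the fitted log2 ratio in SR-VP was −0.08 for CYP307A1, −0.12 for CYP302A1, 0.38 for CYP315A1 and −0.10 for CYP314A1, and none of the 4 passed the adjusted p.

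By root mean square difference of the log2 ratio over 5 arrays, CYP314A1 and CYP302A1 were 0.119 apart, CYP302A1 and CYP307A1 0.140, and CYP314A1 and CYP307A1 0.145. CYP315A1 lay apart from the other 3 genes, by 0.615 to 0.627. Its ratio was above that of CYP302A1 and of CYP307A1 on each of the 5 arrays, and above that of CYP314A1 on all but SR-TK replicate 1. The mean gap of CYP315A1 over CYP307A1 was 0.61 in SR-TK and 0.40 in SR-VP. These are descriptions over arrays that share LS-VL.

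Of the rest of the hormone pathway, only neverland was found by name. The 30 other names looked for held ecdysone receptor, nuclear receptor and juvenile hormone genes, alternative names and P450s of the mitochondrial clan. Of these names, 3 matched a symbol. A gene without a symbol could not be matched, so a name not found does not mean that the gene is missing from the array. The pathway gene neverland is the oxygenase that in Drosophila takes the first step from cholesterol. Its log2 ratio was 0.19 and −0.21 in SR-TK and 0.12, −0.08 and −0.32 in SR-VP, in the same order of arrays as CYP302A1 and CYP314A1. The fitted values were −0.01 ± 0.14 in SR-TK (SE, limma adjusted p = 0.967) and −0.09 ± 0.11 in SR-VP (adjusted p = 0.648). Under median centring both turned positive, to 0.51 in SR-TK and 0.19 in SR-VP.

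The other matched names are CYP381A1 and CYP381A2, mite P450s of the mitochondrial clan to which CYP302A1, CYP314A1 and CYP315A1 also belong. CYP381A1 had log2 ratios of 1.00 and 0.50 in SR-TK and 0.84, 0.52 and 0.65 in SR-VP. CYP381A2 had 1.41 and 0.65 in SR-TK and 0.80, 0.69 and 0.55 in SR-VP. All 5 arrays were above 0 for both. The arrays of a strain lay on 1 side of 0 for 68.1% of all genes in SR-TK and 50.1% in SR-VP. CYP381A2 was called in SR-TK, with a 2.04-fold level (adjusted p = 0.0234 in limma), and in SR-VP it passed the adjusted p alone at 1.60-fold (adjusted p = 0.035). CYP381A1 passed the adjusted p alone in both, at 1.68-fold for SR-TK (adjusted p = 0.0295) and 1.59-fold for SR-VP (adjusted p = 0.0181). Without SR-TK replicate 1, the log2 ratio in SR-TK was 0.65 for CYP381A2 (adjusted p = 0.0651) and 0.50 for CYP381A1 (adjusted p = 0.139). Leaving out any 1 SR-VP array also raised the adjusted p of both genes above 0.05, with log2 ratios in SR-TK left as they were and those in SR-VP at 0.58 to 0.75. Probe 3 of CYP381A1 was not well above background in either channel on replicate 2 of SR-TK and of SR-VP. With only probes well above background everywhere, CYP381A1 had a log2 ratio of 0.95 in SR-TK and 0.78 in SR-VP.

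Mitochondrial P450s draw electrons from adrenodoxin through adrenodoxin reductase. The array names Adx and AdR, picked after their names and values were seen, were taken for these carriers by symbol only. Adx had log2 ratios of 0.27 and 0.21 in SR-TK and 0.12, 0.09 and 0.23 in SR-VP. AdR had −0.02 and 0.22 in SR-TK and 0.09, 0.17 and 0.35 in SR-VP. Probes of AdR were dim on some arrays. Probe 2 had a background-subtracted Cy5 intensity of 41.5 on SR-VP replicate 2, against 2179 and 2579.5 on SR-VP replicates 1 and 3. Probe 3 had 98.5 on SR-TK replicate 2, against 2238 on SR-TK replicate 1. The LS-VL SD of AdR was 0.802, at the 99.1st percentile. Neither passed the limma test after loess: the adjusted p was 0.127 for Adx and 0.608 for AdR in SR-TK, and 0.218 for Adx and 0.193 for AdR in SR-VP. Under median centring both passed the limma adjusted p. Adx then had a log2 ratio of 0.79 in SR-TK (adjusted p = 0.00483) and 0.42 in SR-VP (adjusted p = 0.0298). AdR had 0.46 in SR-TK (adjusted p = 0.0258) and 0.42 in SR-VP (adjusted p = 0.0269). The median of all genes moved there too, to 0.22 in SR-TK and 0.12 in SR-VP. At an unadjusted limma p under 0.05, 8189 of 15861 genes passed there in SR-TK, against 3995 after loess. In SR-VP 6465 genes passed, against 4264.

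Among the P450 family, CYP315A1 had a higher rank by ratio than the other hormone genes. Ranked from the highest log2 ratio among 99 P450 genes, CYP315A1 was 31st in SR-TK and 38th in SR-VP. CYP314A1 was 54th in SR-TK and 86th in SR-VP, CYP307A1 73rd in SR-TK and 70th in SR-VP, and CYP302A1 74th in SR-TK and 84th in SR-VP. Of the 99 genes, 12 were called higher and 1 lower in SR-TK, and 16 higher and 1 lower in SR-VP. CYP392E6, the P450 with the highest ratio, had a log2 ratio of 3.34 in SR-TK and 3.38 in SR-VP. An absolute log2 ratio under 0.5 was found for 4 of 4 hormone genes in each strain. It was found for 65.7% of the P450 genes in SR-TK and 66.7% in SR-VP, and for 91% and 92.1% of all genes. With 4 genes, this does not set them apart from genes at large.

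**Figure D4:**
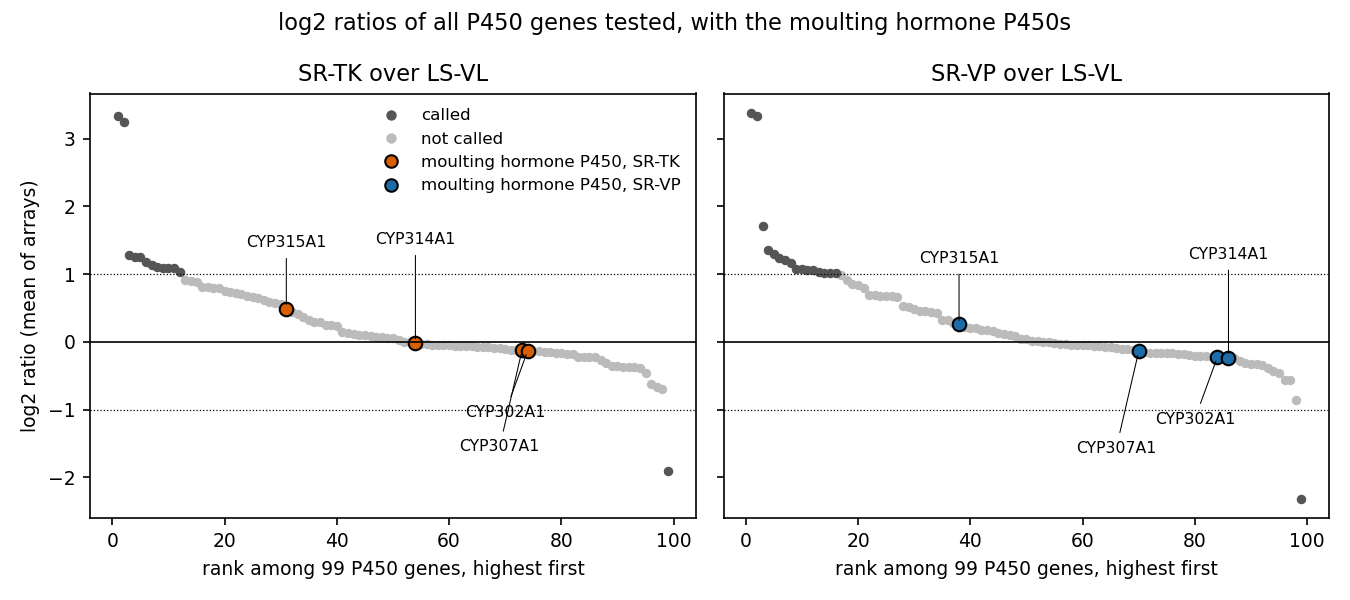
Log2 ratio over LS-VL (vertical axis) of 99 P450 genes, ranked from the highest, in SR-TK (left) and SR-VP (right), with called genes in dark grey and the hormone genes outlined in colour. Dotted lines mark a log2 ratio of 1 in either direction, and the hormone genes lie between them at ranks 31 to 74 in SR-TK and 38 to 86 in SR-VP.

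The genes with a symbol whose log2 ratios lay nearest over the 5 arrays were found for each hormone gene by root mean square difference. For CYP307A1 these were TuCCE-24, named as a carboxyl/cholinesterase (0.0418), and the P450 Tetur20g03900_CYP (0.0829), where the median over all genes was 0.283. CYP302A1 had Tetur20g03900_CYP (0.0819) and CYP392D4 (0.110), against a median of 0.301. CYP314A1 had CCEinc-27 (0.0953) and CYP389C10 (0.102), against 0.328. CYP315A1 had CYP392D8 (0.208) and a gene named CYP-pseudogene (0.248), against 0.496. The nearest genes without a symbol were closer, at 0.0304 for CYP307A1, 0.0271 for CYP302A1, 0.0851 for CYP315A1 and 0.0507 for CYP314A1. Some neighbours are to be found for any gene among 15861, so likeness over 5 arrays is given as a description.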

How the data were processed

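RNA of 3 strains was compared on 5 Agilent arrays with 2 colours, all on 1 slide and from 1 scan, per the file headers. The authors deposited spot intensity values (median foreground, local background and processed signals), per the file headers, made with Agilent Feature Extraction 10.5, per the submitters' processing notes. A log10 ratio that was deposited too of the channels was not used for any result. The authors' 2 lists of fold changes use another gene numbering and were not used here.

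Median signals were background-corrected by normexp (offset 50), normalised by loess within arrays (control spots at weight 0) and by Aquantile across them (limma 3.58.1, R 4.3.3). Left out were control spots and 874 spot values marked as outliers; saturated spots were kept. Probes stayed in if 1 channel was well above background on 2 or more arrays of 1 strain, which left 44268 probes (71.9% of the spots that were not controls). Up to 3 probes per gene name were averaged, giving 15861 genes. The limma model held 1 coefficient per strain, with all arrays in the fit (3 residual degrees of freedom), with Benjamini-Hochberg adjustment over all genes and 95% intervals from the moderated spread. SR-TK, with 2 arrays, takes part of its spread from SR-VP. The labels call arrays biological replicates. Whether each array had an LS-VL extract of its own is not stated, so the spread of LS-VL may be understated in the p-values. The number of arrays limits the precision. The fit was tested on simulated data.

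The members and gene lists were chosen with earlier results of these data known. Genes outside the hormone P450s were named by a list of symbols of the pathway and the mitochondrial clan, by nearest log2 ratios and as the highest P450 ratio. A further 2 were named by the truncated symbol chitin. The design planned an alternative with mean foreground signals, and those were not used here. The array holds 2 numberings: 3 of the 4 member numbers also occur as plain names, which were not taken as the same genes. Deviations from the strain mean correlated over genes at 0.373 between the arrays numbered 1 and at 0.157 between those numbered 2. The differently numbered SR-VP replicate 3 and SR-TK replicate 2 also gave 0.157. Deviations of 2 SR-TK arrays from their mean mirror each other, so these values are not separate observations and cannot decide on pairing. With only 2 shared numbers and no label on what a number marks, same-numbered arrays were not treated as pairs.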

Additional observations from a re-analysis of the deposited data

How the results depend on the processing

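Over 203 alternative values for the 4 hormone genes and 3 contrasts, none was called with an absolute log2 value of at least 1, and the largest was 0.87. Of these, 65 equal the reported value, many by construction (arrays of the other strain left out, no normalization between arrays). Of the 138 that moved, 120 kept direction and side of the adjusted p (limma) and 16 turned sign. The 95% interval reached a log2 value of 1 in 12 of the 203, which were CYP315A1 in SR-TK or between the strains, and once CYP314A1 between the strains. Median centring turned CYP307A1 (0.55 in SR-TK, 0.23 in SR-VP), CYP302A1 in SR-TK (0.26) and CYP314A1 in SR-TK (0.13), and took CYP315A1 in SR-TK past the threshold (0.87, adjusted p = 0.0167). CYP314A1 in SR-TK also turned with only probes well above background everywhere (0.052) and on probe 1 alone (0.13), and on that probe in SR-VP (0.056). Probe 2 alone took CYP302A1 in SR-VP past the threshold (−0.36, adjusted p = 0.0368).

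Leaving out each array in turn (a lone SR-TK array is then assumed to vary like SR-VP) gave, in SR-TK, −0.27 to 0.030 for CYP307A1, −0.19 to −0.07 for CYP302A1, 0.12 to 0.86 for CYP315A1 and −0.21 to 0.17 for CYP314A1. In SR-VP it gave −0.25 to −0.08, −0.29 to −0.12, 0.13 to 0.38 and −0.34 to −0.10 in the same order of genes. For SR-TK minus SR-VP it gave −0.13 to 0.17, −0.012 to 0.16, −0.13 to 0.60 and 0.03 to 0.41. With the replicate number as a block, SR-TK minus SR-VP was −0.039 for CYP307A1 and −0.012 for CYP302A1. No hormone gene passed under the block, and only 2 genes of all were called in that contrast.

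The count of all genes called was 362 in SR-TK, and 565 with offset 10, 806 with processed signals, 753 with median centring (82.6% higher, against 60.8%) and 70 from its own arrays only. In SR-VP it was 310, and 483 with offset 10, 655 with processed signals and 430 with median centring (70.7% higher, against 57.4%). For SR-TK minus SR-VP it was 34, and 53 with offset 10, 19 with processed signals, 77 with median centring and 11 with the strict probes. With 1 array left out, the counts in that order were 328 to 408, 255 to 315 and 0 to 13, and SR-VP replicate 3 was the array whose loss gave 0 (limma, with 1899 genes under an unadjusted p of 0.05).

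Among the other genes, neverland turned under median centring (0.51 in SR-TK, 0.19 in SR-VP), and when SR-TK replicate 2 or SR-VP replicate 3 was left out (range with 1 array left out −0.21 to 0.19 in SR-TK and −0.20 to 0.019 in SR-VP). AdR turned in SR-TK without SR-TK replicate 2 (−0.019 to 0.22). Adx and AdR passed the adjusted p under median centring in both strains, a setting that also raised the median of all genes. The adjusted p of CYP381A2 over alternatives was 0.00339 to 0.164 in SR-TK and 0.00582 to 0.177 in SR-VP, and that of CYP381A1 was 0.0104 to 0.16 and 0.00798 to 0.112. Mean foreground signals were not run. The causes were not tested.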
